A study of Arabidopsis thaliana with 10 samples.

Results

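Seedlings of the pif3 mutant, which lack the transcription factor PIF3 alone, were compared with wild-type seedlings (WT) by sequencing the 3′ ends of their mRNAs. The comparison rests on 6 libraries of the 30 in the series, pif3 A, B and C against WT A, B and C, chosen by the genotype label. Both groups were whole 2-day-old Arabidopsis thaliana seedlings of the Columbia background, germinated under white light for 3 h, given a far-red pulse of 15 min and kept in darkness for 2 d at 21 °C. The series holds 3 libraries for each of 10 genotypes: the single mutants pif3, pif1, pif4 and pif5, the mutants pif345, pif145, pif135 and pif134 that combine 3 of these lesions, the quadruple mutant pifq that combines all 4, and WT. The alleles are not given in the sources used here, and the labels name no second line of any mutant.

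PIF3 is the founding member of the phytochrome-interacting factors, basic helix-loop-helix proteins that accumulate in darkness and are degraded when light activates the phytochrome photoreceptors. In dark-grown seedlings these factors keep up the etiolated state, with an elongated hypocotyl, a closed apical hook and chloroplast genes held low. The family is known for overlap among its members, so single mutants are usually mild. PIF proteins bind the G-box CACGTG and the related PBE-box CACATG.

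Depth was 70809112, 28655736 and 26130427 counts in pif3 A, B and C, against 28753418, 43973898 and 30607581 counts in WT A, B and C. The range over all 30 libraries was 18971915 to 70809112 counts, and 18680 of 33322 loci had enough counts to test. Levels are CPM, counts relative to library size, scaled for library composition with edgeR's TMM factors, which were 1.03 to 1.07 in pif3 and 0.847, 1.06 and 0.995 in WT A, B and C. Reads come from 3′ ends only, so CPM values were not corrected for transcript length and are not compared between genes. In bulk seedlings, fewer cells of a type and less RNA per cell cannot be told apart. Root hair and stomatal markers were present in both groups: the summed level of 8 root hair markers was 27.5 to 52.6 CPM in pif3 and 29.5 to 49.4 CPM in WT, and that of 8 stomatal markers was 19.5 to 26.9 CPM in pif3 and 16.1 to 22.5 CPM in WT, with EPF1 at 0 in all 6 libraries. The libraries labelled pif134 went against their label, since PIF1 stood at 56.7 to 74.5 CPM there and at 20.7 to 31.8 CPM in WT. In the tests they enter only the filter on low counts, the scaling and the shared estimate of spread. Without them 18656 genes were tested, and 22 genes in place of 21 passed the test in pif3 against WT.

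PIF3 itself checked the genotype. The gene lies on chromosome 1 at 3075768 to 3079654, forward strand (coordinates from the RefSeq annotation of TAIR10.1). Its level was 1.69, 1.57 and 2.47 CPM in pif3, against 69.8, 82.7 and 69.0 CPM in WT. All 3 pif3 libraries lay far below all 3 WT libraries. The log2 fold change was -5.28 ± 0.36 (SE, n = 3 each, adjusted p = 2.52e-10 by edgeR's quasi-likelihood test). Its neighbours on the chromosome, AT1G09520 and MYB61, had log2 fold changes of -0.25 ± 0.22 and -0.42 ± 0.32 and did not pass. The 3 other PIF genes tested did not pass either: the log2 fold change was 0.12 ± 0.56 for PIF1 (PIL5 in RefSeq), 0.15 ± 0.33 for PIF4 and 0.29 ± 0.40 for PIF5 (PIL6 in RefSeq). PIF1 averaged 27.2 ± 13.5 CPM in pif3 and 25.0 ± 5.95 CPM in WT (SD, n = 3 each).

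Few transcripts differed between pif3 and WT, and most of those that did were lower in pif3. At an adjusted p under 0.05, 21 genes passed, or 0.112% of those tested: 18 were lower in pif3 (0.0964%) and 3 were higher (0.0161%). All 21 differed by at least 1 on the log2 scale, and in all 21 the pif3 and WT libraries did not overlap. For comparison, 4.18% of all tested genes had every pif3 library below every WT library, and 4.23% had every one above. WT had the highest mean of the 10 genotypes in 12 of the 21 genes, so in these the mutants that keep PIF3 were below WT too. The lowest mean was that of pif3 in 9 of the 21, PIF3 itself among them. The median log2 fold change over all tested genes was 0.02, and 767 genes had an unadjusted p under 0.05. Deviations from the genotype mean were correlated between pif3 and WT libraries of the same replicate letter for A and B (0.253 and 0.562). For C the correlation was 0.106, against at most 0.104 between different letters. With the letter as a block 34 genes passed (8 higher, 26 lower, 0.182%), the 21 among them.

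**Figure D1:**
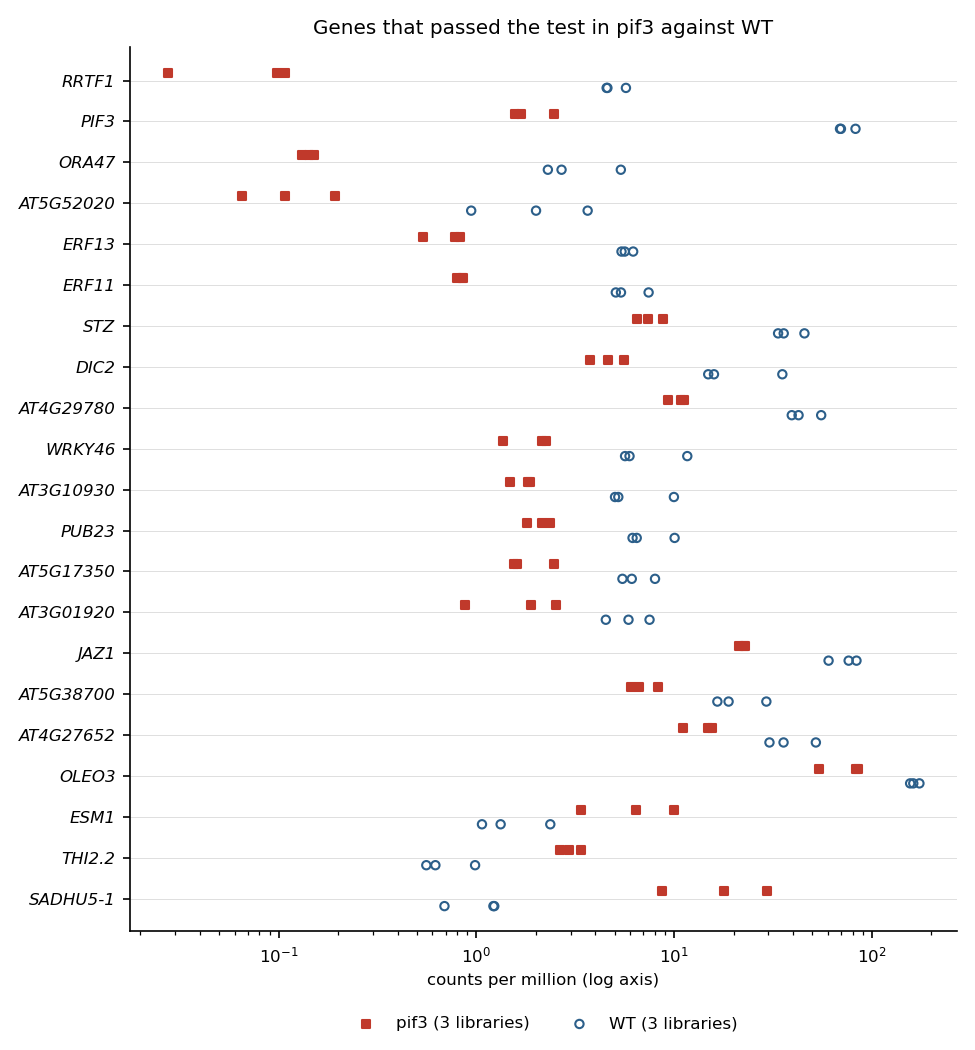
Level of each of the 21 genes that passed the test, in CPM on a log axis, for the 3 pif3 libraries (filled squares) and the 3 WT libraries (open circles). In 18 genes the pif3 libraries lie to the left of all WT libraries, by the widest margin in RRTF1 and PIF3, and in ESM1, THI2.2 and SADHU5-1 they lie to the right.

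Besides PIF3, 17 genes fell, and 7 of them encode DNA-binding regulators: RRTF1, ORA47, ERF13, ERF11, AT5G52020, STZ and WRKY46. Among these, RRTF1, ORA47, ERF13 and ERF11 are AP2/ERF proteins, a plant family of DNA-binding factors that act in ethylene, jasmonate and cold signalling. AT5G52020 carries the same RefSeq product name as ORA47, an integrase-type DNA-binding superfamily protein. RRTF1, a factor induced by reactive oxygen and jasmonate, was at 0.0275, 0.0979 and 0.107 CPM in pif3, against 5.71, 4.56 and 4.6 CPM in WT. That is 8 counts over the 3 pif3 libraries against 492 over the 3 WT libraries, so the transcript was close to undetected in pif3. Its log2 fold change was -6.14 ± 0.54 (adjusted p = 5.51e-08), and the ratio of scaled counts, WT over pif3, was 79.6 with a 95% counting interval of 40.1 to 185.0. Genes on the opposite strand overlap RRTF1, ORA47, PUB23 and AT3G01920, and whether reads were counted by strand is not given in the sources used here.

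ORA47, a regulator of jasmonate synthesis, was at 0.151, 0.131 and 0.143 CPM in pif3, against 5.38, 2.70 and 2.30 CPM in WT (log2 fold change -4.54 ± 0.46, adjusted p = 6.35e-07). WT A was the highest of the WT libraries, and even the lowest WT library was well above every pif3 library. ERF13, another AP2/ERF factor, stood at 0.825, 0.783 and 0.536 CPM in pif3 and at 5.42, 5.63 and 6.21 CPM in WT (-2.98 ± 0.34, adjusted p = 5.35e-06). ERF11, a repressor in the same family, was at 0.797, 0.849 and 0.858 CPM in pif3 and at 7.43, 5.07 and 5.39 CPM in WT (-2.83 ± 0.46, adjusted p = 0.00249). Within each genotype the libraries of both genes were close to one another. AT5G52020, which RefSeq places in the same DNA-binding superfamily as ORA47, fell by 3.99 ± 0.77 on the log2 scale (adjusted p = 0.0211), with 19 counts over the pif3 libraries and 194 over the WT libraries.

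STZ, also called ZAT10, is a zinc finger protein of salt, cold and wound responses. It had 6.5, 7.35 and 8.76 CPM in pif3, against 45.6, 33.6 and 35.8 CPM in WT (log2 fold change -2.35 ± 0.37, adjusted p = 0.00249). WRKY46, a defence and drought regulator, had 2.24, 1.37 and 2.15 CPM in pif3, against 11.7, 5.95 and 5.65 CPM in WT (-2.0 ± 0.34, adjusted p = 0.00463). JAZ1 is a repressor of jasmonate signalling whose own gene is switched on by jasmonate. Its levels were 21.2, 22.7 and 22.6 CPM in pif3 and 76.3, 83.6 and 60.4 CPM in WT (-1.73 ± 0.32, adjusted p = 0.0161). PUB23, a ubiquitin ligase of immune signalling, fell by 1.84 ± 0.38 on the log2 scale (adjusted p = 0.0461).

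Outside transcription factors, AT4G29780, annotated as a nuclease, gave one of the tightest differences. It was at 11.3, 9.37 and 10.8 CPM in pif3, against 55.4, 42.6 and 39.4 CPM in WT (log2 fold change -2.12 ± 0.21, adjusted p = 3.34e-07). DIC2, a mitochondrial carrier that exchanges dicarboxylic acids, was at 5.61, 3.75 and 4.65 CPM in pif3, against 35.3, 15.9 and 14.9 CPM in WT. The pif3 libraries were alike, while WT A was more than the other WT libraries combined. DIC2 was 4.69-fold lower in pif3 (-2.23 ± 0.41, adjusted p = 0.0156). It was the only member called among 11 tested genes for mitochondrial carriers and stress, whose median log2 fold change was -0.32.

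The remaining genes that fell included 5 with less defined products. AT4G27652, AT5G17350 and AT3G10930, all uncharacterized, fell by 1.51 ± 0.24, 1.81 ± 0.30 and 1.97 ± 0.41 on the log2 scale. AT5G38700, annotated as a cotton fiber protein, fell by 1.61 ± 0.31, and AT3G01920, annotated with a DHBP synthase RibB-like domain, fell by 1.79 ± 0.37. Their adjusted p-values were between 0.00249 and 0.0461. OLEO3, an oleosin that coats seed oil bodies, was at 54.1, 84.7 and 82.9 CPM in pif3 and at 156.2, 174.0 and 162.0 CPM in WT (-1.15 ± 0.23, adjusted p = 0.0258). No other of 22 tested genes for seed storage and maturation passed, and their median log2 fold change was 0.05.

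Only 3 genes rose. SADHU5-1, a non-coding retrotransposon annotated as a pseudogene on chromosome 4 at 660810 to 661698, was at 29.5, 17.8 and 8.73 CPM in pif3 and at 1.23, 1.22 and 0.69 CPM in WT. All pif3 libraries were well above WT, although they differed among themselves. The log2 fold change was 4.15 ± 0.53 (adjusted p = 5.13e-05). Sadhu elements form a family, and how reads matching several copies were counted is not given in the sources used here. THI2.2, a thionin with antimicrobial properties, was at 2.96, 2.64 and 3.40 CPM in pif3, against 0.986, 0.621 and 0.559 CPM in WT (2.07 ± 0.39, adjusted p = 0.0194). ESM1, which steers the breakdown of glucosinolate defence compounds, was at 3.37, 6.4 and 10.01 CPM in pif3 and at 1.07, 1.33 and 2.37 CPM in WT (2.04 ± 0.41, adjusted p = 0.028). It was the only one called among 12 glucosinolate genes, whose median log2 fold change was 0.10.

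For 8 of the 21 genes, PIF3, RRTF1, AT4G29780, ORA47, ERF13, SADHU5-1, STZ and ERF11, the call held under every alternative fit tried. The other 13 each lost it when 1 or more libraries were left out. Without WT A 10 genes passed, and those that did not were DIC2 (adjusted p = 0.255), WRKY46 (0.0959), JAZ1 (0.0698), AT5G38700 (0.271), AT5G52020 (0.224), AT3G10930 (0.547), PUB23 (0.445), ESM1 (0.369), AT4G27652 (0.0575), OLEO3 (0.0778) and AT3G01920 (0.0522). The numbers passing without pif3 A and without pif3 B were 11 and 8, and the adjusted p of AT5G17350 was 0.0646 and 0.0549 and that of THI2.2 was 0.065 and 0.0549 in these fits. None of the 21 changed direction in these alternatives.

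The 300 bases upstream of the annotated starts are shown for genes that changed and averaged at least 5 CPM, PIF3 aside. Those shown are the 3 with the largest falls and the 1 that rose. Sequences are from TAIR10.1, 5′ to 3′ on the gene's strand. Capitals mark matches, on either strand and not overlapping, to the G-box CACGTG, the PBE-box CACATG or CGCGTT, a core bound by the calcium-responsive CAMTA factors.
STZ, chr1:9649324-9649623, reverse strand: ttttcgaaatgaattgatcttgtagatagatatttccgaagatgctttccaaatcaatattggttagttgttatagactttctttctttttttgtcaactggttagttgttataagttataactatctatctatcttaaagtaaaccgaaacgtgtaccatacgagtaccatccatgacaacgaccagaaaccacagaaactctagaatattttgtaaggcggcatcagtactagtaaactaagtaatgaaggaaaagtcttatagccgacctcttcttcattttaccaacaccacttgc
DIC2, chr4:12686159-12686458, forward strand: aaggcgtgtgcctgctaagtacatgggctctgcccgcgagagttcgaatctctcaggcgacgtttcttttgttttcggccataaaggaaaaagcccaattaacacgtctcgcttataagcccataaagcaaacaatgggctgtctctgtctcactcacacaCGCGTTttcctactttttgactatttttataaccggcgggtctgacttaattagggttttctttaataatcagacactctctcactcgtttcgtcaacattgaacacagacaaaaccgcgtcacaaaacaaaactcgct
AT4G29780, chr4:14579263-14579562, forward strand: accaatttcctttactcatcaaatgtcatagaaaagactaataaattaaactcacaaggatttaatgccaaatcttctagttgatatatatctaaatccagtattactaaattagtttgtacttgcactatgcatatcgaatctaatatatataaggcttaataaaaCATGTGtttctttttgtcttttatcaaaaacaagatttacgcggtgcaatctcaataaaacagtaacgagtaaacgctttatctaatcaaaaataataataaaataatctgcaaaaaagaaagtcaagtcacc
SADHU5-1, chr4:660510-660809, forward strand: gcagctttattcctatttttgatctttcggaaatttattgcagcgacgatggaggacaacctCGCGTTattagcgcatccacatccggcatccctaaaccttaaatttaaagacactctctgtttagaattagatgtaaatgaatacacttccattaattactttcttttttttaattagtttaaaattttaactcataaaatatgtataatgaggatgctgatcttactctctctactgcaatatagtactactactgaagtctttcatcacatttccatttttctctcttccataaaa
None of the motifs was found in this window of STZ. DIC2 had CGCGTT starting 139 bases before its start, AT4G29780 had the PBE-box in reverse at 133 bases before, and SADHU5-1 had CGCGTT at 238 bases before. Of the 17 genes that fell, PIF3 aside, 3 had a G-box in this window (RRTF1, OLEO3 and PUB23), 2 a PBE-box and 2 CGCGTT. Among 18668 tested genes with such a window the shares were 8.25%, 13.2% and 3.26%. In the list of 45 rapid-response genes below, 7, 10 and 4 windows held these motifs.

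Lower levels in pif3 were also common in a wider list of stress genes. This list of 45 genes of rapid wound, touch and cold responses covers immediate-early regulators of the ERF, WRKY, ZAT, CBF and JAZ families. Of these, 42 could be tested. Like the other lists, it was chosen with earlier results of these data known, so its falls are no separate support. In pif3, 7 of the 42 fell and 0 rose: RRTF1, ERF11, STZ, AT4G29780, WRKY46, PUB23 and JAZ1. The log2 fold change was below 0 in 41 of 42, with a median of -1.04, against 47.4% below 0 and a median of 0.02 over all tested genes. An unadjusted p under 0.05 was reached by 26 of the 42, all lower, and 27 had every pif3 library below every WT library. Of all 18680 tested genes, 18 were called lower and 275 were lower with an unadjusted p under 0.05. Every pif3 library was below every WT library in 4.18% of them. Members that did not pass include CAF1b, a subunit of the complex that shortens mRNA tails (-2.19 ± 0.54, adjusted p = 0.153), ERF6 (-1.77 ± 0.49, adjusted p = 0.343) and WRKY40 (-1.70 ± 0.41, adjusted p = 0.13). TCH3, a touch-induced calmodulin-like gene, was the 1 member above 0, at 0.20 ± 0.52.

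The summed level of the 45 genes was 449.6, 402.1 and 406.4 CPM in pif3 A, B and C, against 1132, 659.9 and 669.9 CPM in WT A, B and C. The 3 pif3 libraries were alike and below every WT library, and WT A was far above the other 2. Leaving out WT A, 4 members passed, and leaving out pif3 B, 4 passed. WT B and C alone were still above all pif3 libraries in the sum. It averaged 419.4 CPM in pif3, 461.6 CPM in pif4, 589.9 CPM in pif1, 763.5 CPM in pif5 and 820.4 CPM in WT. In mutants lacking PIF3 and other PIF genes it averaged 755.9 CPM (pif345), 700.8 CPM (pif135) and 949.1 CPM (pifq). The average was 766.9 CPM in pif145, which keeps PIF3, and 1512 CPM in the libraries labelled pif134. A sum as low as in pif3 was thus not shared by the other lines low in PIF3.

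**Figure D2:**
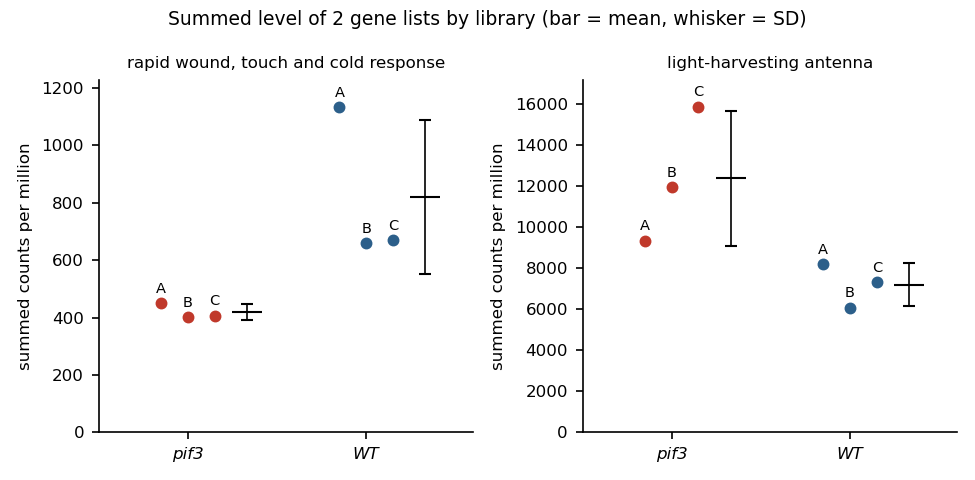
Summed level, in CPM, of the rapid wound, touch and cold response list (left) and the light-harvesting antenna list (right) in each library of pif3 and WT, with the replicate letter beside each point and the mean ± SD to its right. The pif3 libraries lie below all WT libraries on the left (402.1 to 449.6 against 659.9 to 1132) and above them on the right (9339 to 15860 against 6084 to 8201).

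Genes of the light-harvesting antenna, the chlorophyll-binding proteins that feed light energy to the photosystems, were somewhat higher in pif3, but none of 21 passed in the fit over all 30 libraries without the letter block. Fitted on the 6 libraries alone, 1 passed without the block and 2 with it, and in the single mutants and WT alone 3 passed with it. All 21 had log2 fold changes above 0, with a median of 0.82, and 12 had an unadjusted p under 0.05. DESeq2 called 1. Of all 18680 tested genes, 9806 were above 0 and 492 were higher with an unadjusted p under 0.05. With the letter block over all libraries, LHB1B1, an antenna protein of photosystem II, passed (adjusted p = 0.00207, against 0.117 without it). Its levels were 269.2, 529.4 and 572.8 CPM in pif3 and 91.4, 111.6 and 145.1 CPM in WT, a log2 fold change of 1.98 ± 0.47. CAB2 had 303.4, 477.0 and 682.2 CPM in pif3 and 141.9, 121.1 and 273.0 CPM in WT (1.45 ± 0.42, adjusted p = 0.42), and LHCB2.2 had 205.9, 313.4 and 520.1 CPM in pif3 and 171.5, 147.9 and 163.8 CPM in WT (1.11 ± 0.30, adjusted p = 0.28). Every pif3 library was above every WT library in 7 of the 21, and in 4.23% of all tested genes. In all 3 named genes pif3 A, the most deeply sequenced library, was the lowest of the pif3 libraries. CAB1, CAB2, CAB3, LHB1B1 and LHB1B2 are closely similar copies, so the split of reads among them is uncertain.

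Other plastid and light-related groups did not move past the test. Among 31 genes of photosystems and electron transport, 0 passed, 0 had an unadjusted p under 0.05, DESeq2 called 0 and the median log2 fold change was 0.36. PSBR, a photosystem II subunit, averaged 984.6 CPM in pif3 and 659.7 CPM in WT (0.58 ± 0.30, adjusted p = 1). Among 26 genes of tetrapyrrole and chlorophyll synthesis, counts were 0 by all 3 measures and the median was 0.07. GUN5, a subunit of the magnesium chelatase, had a log2 fold change of 0.39 ± 0.29, and GSA1, which makes the precursor aminolevulinic acid, one of -0.52 ± 0.32 (adjusted p = 1 for both). Of 29 light signalling genes, 0 passed, 3 had an unadjusted p under 0.05 and DESeq2 called 1. ELIP2, an early light-induced chlorophyll-binding protein, was at 19.6, 36.5 and 37.9 CPM in pif3 and at 59.4, 70.7 and 99.4 CPM in WT (-1.29 ± 0.32, adjusted p = 0.166, and 0.0174 with the letter block).

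Growth and hormone lists were likewise quiet. By edgeR and by DESeq2 no member passed among 16 shade-responsive genes, 18 ethylene and apical hook genes, 18 auxin genes, 14 cell wall genes, 12 clock genes or the 4 tested MIDA genes (genes misregulated in the dark). Their medians were 0.15, -0.11, 0.04, -0.01, 0.23 and 0.14. An unadjusted p under 0.05 was reached by 1 auxin, 1 cell wall and 1 clock gene and by none of the shade, ethylene or MIDA genes. XTH19, a xyloglucan-modifying cell wall enzyme, was at 75.4, 76.3 and 89.1 CPM in pif3 and 170.1, 104.8 and 115.7 CPM in WT (-0.70 ± 0.34, adjusted p = 1). CCA1, a morning gene of the clock, averaged 39.3 CPM in pif3 and 25.7 CPM in WT (0.61 ± 0.23, adjusted p = 1). HLS1, needed for the apical hook, had a log2 fold change of -0.45 ± 0.35. Of 8 common reference genes 0 passed, 0 had an unadjusted p under 0.05 and DESeq2 called 0, with a median of -0.11.

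**Figure D3:**
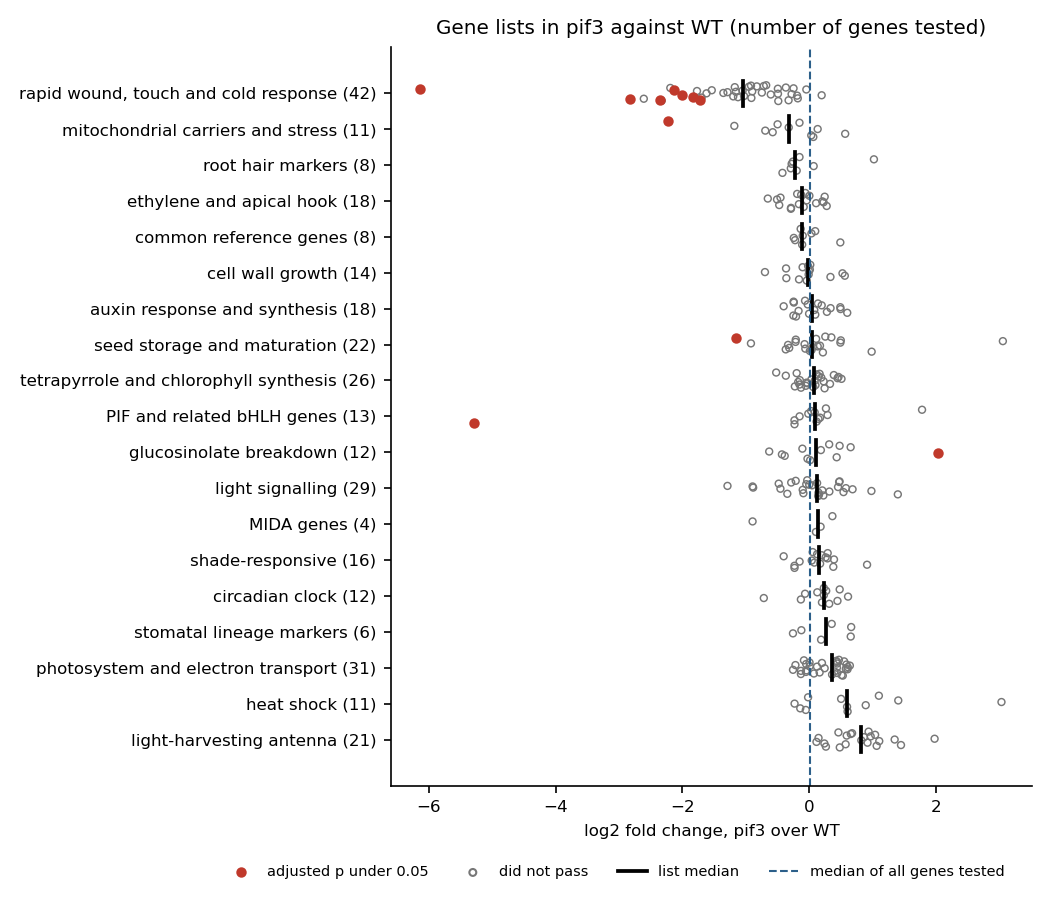
Log2 fold change, pif3 over WT, of every tested member of 19 gene lists, with the list median (black bar), the median of all tested genes (dashed line) and members that passed the test in solid red. The rapid wound, touch and cold list has the lowest median, -1.04, with 7 members passing, and the antenna list the highest, 0.82, with 0 passing.

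The letter block added 13 genes to the 21, of which 8 were lower and 5 higher. AOC3, an enzyme of jasmonate synthesis, was at 15.4, 8.26 and 10.8 CPM in pif3 and at 36.0, 24.7 and 24.5 CPM in WT (-1.30 ± 0.30, adjusted p = 0.109, and 0.00269 with the block). AT2G25460 was at 2.24, 1.6 and 2.65 CPM in pif3 and at 11.4, 11 and 7.16 CPM in WT (-2.18 ± 0.53, adjusted p = 0.14, and 0.0375 with the block). AT2G27080, of the late embryogenesis abundant glycoprotein family, and AT2G25735, uncharacterized, had block p-values of 0.0183 and 0.0421, with WT A the highest library in both. CAF1b (0.023) joined the rapid-response members, making 8 of 42 lower with the block, and 13 were lower with the block in the single mutants and WT alone.

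Direct tests against the other single mutants show where the pif3 pattern stood apart without any WT library. They share the pif3 libraries with the comparison above. The genes called there were chosen in part by their values in those libraries, which favours the same direction in these tests. PIF1 and PIF5 transcripts were depleted in their own mutants, at 1.61 ± 0.66 CPM in pif1 and 0.31 ± 0.30 CPM in pif5. PIF4 averaged 18.8 ± 6.6 CPM in pif4 and 11.8 ± 1.8 CPM in WT (SD, n = 3), so its 3′ tags do not check that label.

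Against pif5, 119 genes passed (51 higher and 68 lower in pif3, 0.637%). The balance depended on the fit, with 174 higher and 140 lower with the letter block, 314 in all, and 26 higher and 75 lower with libraries scaled by total counts. Of the 17 genes that fell in pif3 against WT, 12 were also lower in pif3 than in pif5. RRTF1 averaged 0.0776 ± 0.044 CPM in pif3 and 1.72 ± 0.19 CPM in pif5 (log2 fold change -4.61 ± 0.54, adjusted p = 1.01e-05). ORA47 averaged 0.142 ± 0.010 CPM in pif3 and 3.34 ± 1.27 CPM in pif5 (-4.50 ± 0.46, adjusted p = 1.04e-06). STZ averaged 7.54 ± 1.14 CPM in pif3 and 44.9 ± 1.19 CPM in pif5 (-2.58 ± 0.38, adjusted p = 0.000419), and DIC2 was at 4.67 ± 0.93 CPM in pif3 and 22.2 ± 3.4 CPM in pif5 (-2.25 ± 0.41, adjusted p = 0.00547). Of the 42 rapid-response genes 8 were lower in pif3 than in pif5 and 0 higher, with a median of -1.07. MRD1, a gene of unclear function, was higher in pif3 than in pif5 by 5.32 ± 0.33 (adjusted p = 3.73e-11) and did not differ past the test between pif3 and WT (-0.15 ± 0.27). Leaving out 1 library gave 41 (without pif5 C) to 186 (without pif5 A) genes, with 49 without pif5 B and 57, 55 and 66 without pif3 A, B and C.

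Against pif4, only 8 genes passed (5 higher, 3 lower, 0.0428%). Among the 17 genes that fell against WT, 1 differed between pif3 and pif4, AT3G01920 (-1.95 ± 0.37, adjusted p = 0.0384), which averaged 1.77 ± 0.84 CPM in pif3 and 6.70 ± 2.4 CPM in pif4. Of the 42 rapid-response genes, 0 passed, 0 had an unadjusted p under 0.05, DESeq2 called 0 and the median was -0.17. STZ averaged 7.54 ± 1.14 CPM in pif3 and 7.22 ± 0.42 CPM in pif4 (0.06 ± 0.36), and AT4G29780 averaged 10.5 ± 0.99 CPM in pif3 and 11.8 ± 1.7 CPM in pif4 (-0.17 ± 0.20). A p that misses the threshold does not show equal levels, and both intervals, at 1 SE, lie within 1 of 0 on the log2 scale. The genes that did differ included PIF3, SADHU5-1 (4.17 ± 0.53, adjusted p = 0.00012), ESM1 (2.65 ± 0.43, adjusted p = 0.00443) and QQS, a regulator of starch content (-4.43 ± 0.38, adjusted p = 2.72e-08), which stood at 0.658 ± 0.14 CPM in pif3 and 14.1 ± 2.9 CPM in pif4. AT5G35940, a mannose-binding lectin, was higher in pif3 by 2.21 ± 0.31 (adjusted p = 0.000602). Counts with 1 library left out were 4 to 8, among them 5 without pif3 A, 5 without pif4 A and 4 without pif4 B.

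Against pif1, 261 genes passed (162 higher, 99 lower, 1.4%), and 669 with the letter block (344 higher, 325 lower). Of the 17 genes that fell against WT, 8 were lower in pif3 than in pif1. These were RRTF1 (-5.05 ± 0.53, adjusted p = 1.82e-06), AT4G29780 (-1.29 ± 0.20, adjusted p = 0.000302), WRKY46 (-1.84 ± 0.34, adjusted p = 0.0021), AT3G01920 (-2.61 ± 0.38, adjusted p = 0.000118), ERF11, AT4G27652, JAZ1 and AT5G52020. ORA47 passed only with the block (-1.80 ± 0.48, adjusted p = 0.0531, and 0.0209 with the block). Seed genes also differed: 15 of 22 were higher in pif3 than in pif1, with a median of 4.23. GASA2 and GASA3, gibberellin-regulated peptides of that list, were higher by 8.09 ± 0.82 and 5.38 ± 0.56 (adjusted p = 1.41e-06 for both). In the antenna list, 7 of 21 genes were lower in pif3 than in pif1 and 0 higher, with a median of -1.23. The count was 146 to 328 with 1 library left out: 170, 146 and 148 without pif1 A, B and C, and 146 and 153 without pif3 A and B.

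**Figure D4:**
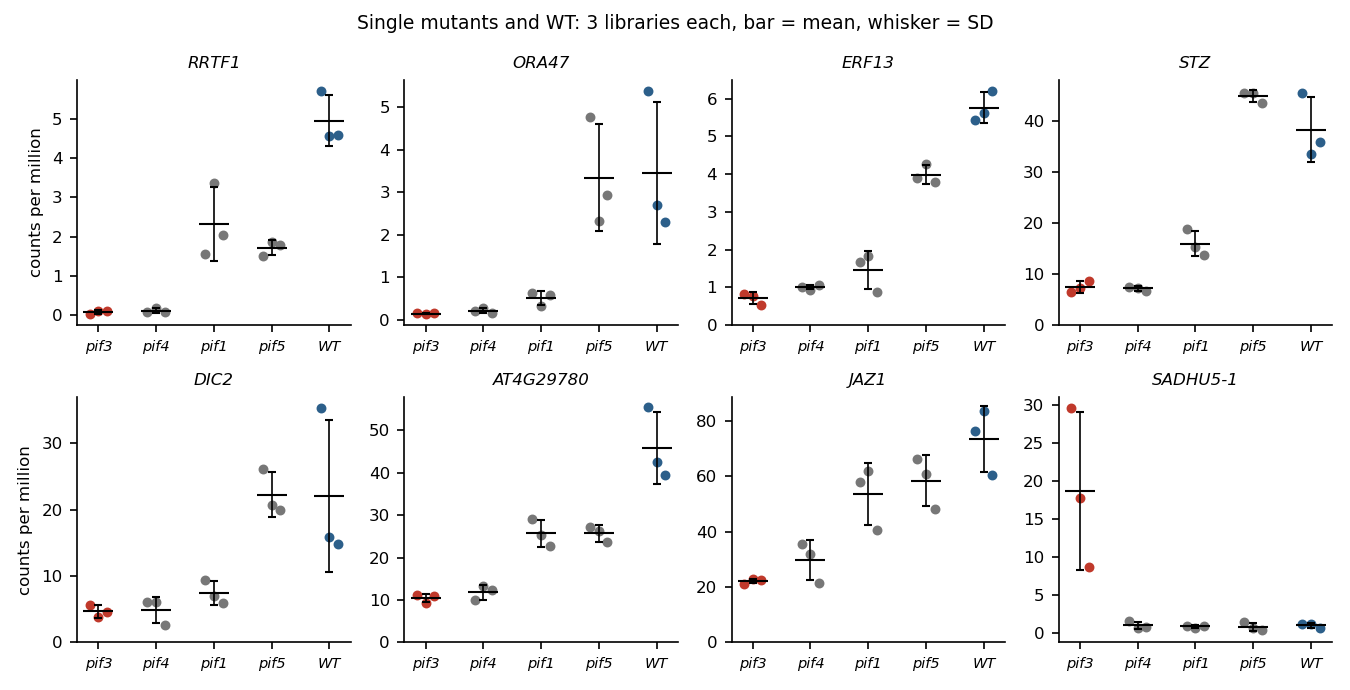
Level in CPM of 8 genes in the single mutants pif3, pif4, pif1 and pif5 and in WT, each point 1 library, with the mean and SD of 3. STZ, of the rapid-response list, is lowest in pif3 and pif4, at 7.54 and 7.22 on average against 38.3 in WT. Its mean in pif1 lies between these and WT, so the low level is not confined to pif3 and pif4. SADHU5-1 is high in pif3 alone among these genotypes.

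SADHU5-1 was higher in pif3 than in each other single mutant, by 4.17 to 4.50 on the log2 scale (adjusted p = 0.00012 or lower). It averaged 18.7 ± 10.4 CPM in pif3 and 2.04 ± 0.74 CPM in pifq. In the other 8 genotypes it averaged between 0.637 and 1.047 CPM, among them pif345, pif135 and the libraries labelled pif134, where PIF3 was also low (2.21 to 5.49 CPM on average). THI2.2 and ESM1 were higher in pif3 than in pif5 (2.71 ± 0.42 and 2.15 ± 0.41, adjusted p = 0.000845 and 0.0083). ESM1 averaged 6.59 ± 3.3 CPM in pif3 and 12.7 ± 5.7 CPM in pif1, a difference that did not pass (adjusted p = 0.264).

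Loss of PIF3 could also be read by setting pifq against pif145, which by its label lacks PIF1, PIF4 and PIF5. PIF1 was at 2.79, 2.88 and 5.69 CPM in pifq and at 3.04, 5.07 and 14.9 CPM in pif145, with pif145 C the highest, and PIF4 tags do not check either label. This comparison shares no library with pif3 against WT. It gave 103 genes (20 higher, 83 lower, 0.551%), and 180 with the letter block. PIF3 fell by 5.76 ± 0.37 on the log2 scale. Of the 17 genes that fell in pif3 against WT, 2 were lower in pifq than in pif145: RRTF1 (-3.0 ± 0.71, adjusted p = 0.043), at 0.0475 ± 0.047 CPM in pifq and 0.395 ± 0.21 CPM in pif145, and OLEO3 (-1.84 ± 0.23, adjusted p = 2.35e-05), at 10.99 ± 1.8 CPM in pifq and 39.4 ± 4.8 CPM in pif145. RRTF1 was close to undetected in pifq A, B and C (0.0, 0.0944 and 0.0482 CPM). In pif145 A, B and C it was also low (0.553, 0.474 and 0.159 CPM), against 4.96 ± 0.65 CPM in WT. Of the 3 genes that rose, THI2.2 was higher in pifq than in pif145 (3.01 ± 0.40, adjusted p = 4.17e-05), at 9.41 ± 4.3 CPM in pifq and 1.16 ± 0.24 CPM in pif145. ESM1 passed only with the block (1.52 ± 0.38, adjusted p = 0.0694, and 0.00555 with the block), and SADHU5-1 did not pass (1.28 ± 0.53, adjusted p = 0.514). Counts were 48, 67 and 53 without pifq A, B and C, and 75 without pif145 C.

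Some genes that fell in pif3 were low in both pifq and pif145. AT4G29780 averaged 10.8 ± 1.3 CPM in pifq and 11.7 ± 2.4 CPM in pif145, against 45.8 ± 8.5 CPM in WT, and DIC2 averaged 4.82 ± 2.5 CPM in pifq and 4.02 ± 1.4 CPM in pif145, against 22.02 ± 11.5 CPM in WT. STZ stood at 34.1 ± 5.8 CPM in pifq and 28.6 ± 13 CPM in pif145, against 38.3 ± 6.4 CPM in WT. The median of the 42 rapid-response genes was 0.24 in pifq against pif145, with 2 lower and 0 higher. The interaction, the pif3 effect minus the pifq effect, tests the difference itself. It was called for 41 genes (27 above 0, 14 below 0, 0.219%), and for 68 with the letter block. With libraries scaled by total counts it was called for 35 above 0 and 10 below 0. Among the 17 genes, 9 had a more negative effect in pif3 against WT, a direction favoured by their choice, since the interaction holds the pif3 and WT libraries that chose them: AT4G29780, ORA47, ERF13, STZ, ERF11, AT5G17350, WRKY46, AT3G10930 and PUB23. DIC2 did so with the block (interaction -2.49 ± 0.58, adjusted p = 0.078, and 0.00572 with the block). With 1 library left out 18 to 36 genes were called: 24, 19 and 18 without pif3 A, B or C, 22, 21 and 23 when a WT library was dropped in the same order, 18, 22 and 26 when a pifq library was, and 27 without pif145 A.

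**Figure D5:**
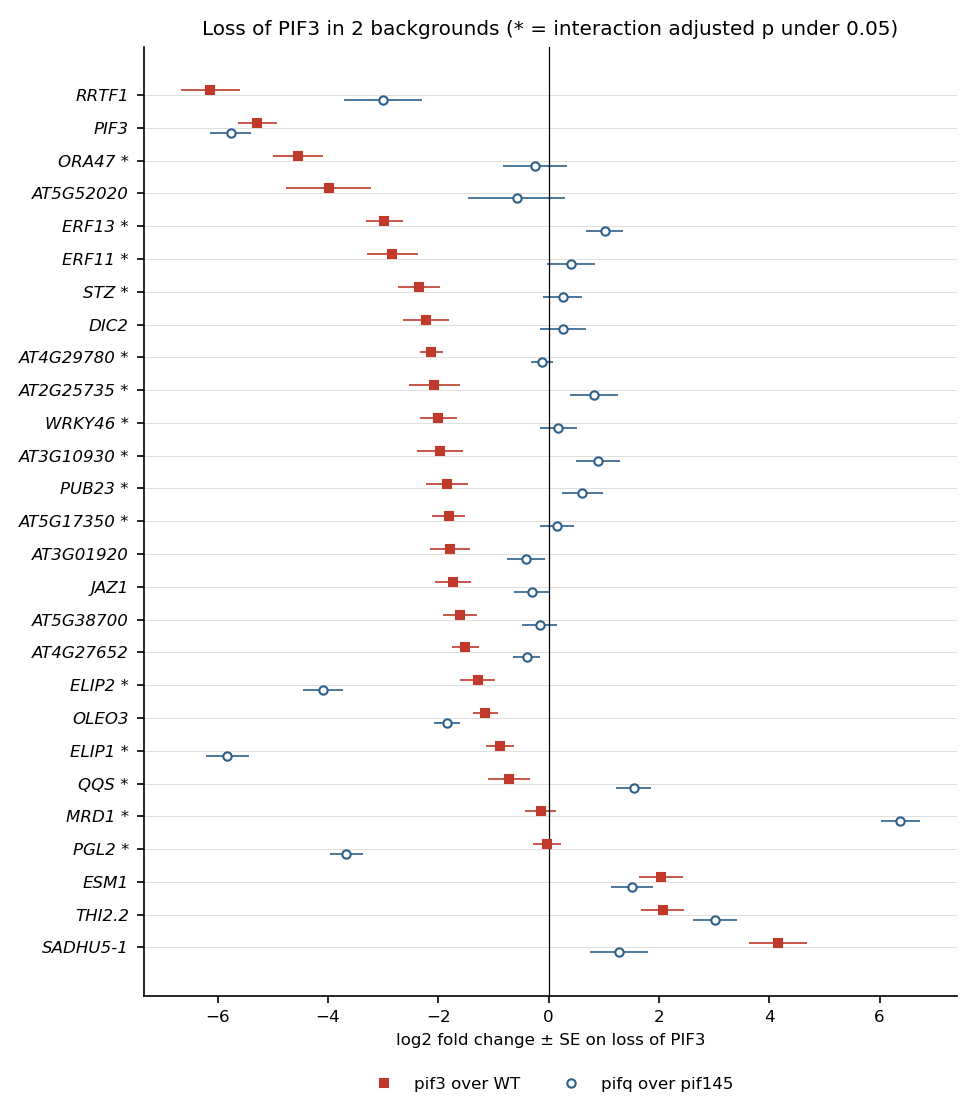
Log2 fold change ± SE on loss of PIF3 in WT (pif3 over WT, filled squares) and in the pif145 background (pifq over pif145, open circles), for the 21 genes called in pif3 against WT and the named genes with an interaction (asterisk). PIF3, OLEO3, THI2.2 and ESM1 lie on the same side of 0 in both, while ERF13, STZ and AT3G10930 are below 0 in pif3 and above 0 in pifq.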

How the data were processed

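RNA 3′ ends of whole dark-grown seedlings were sequenced, per the labels' protocols from poly(A)-selected fragments with a directional method and a pair of technical runs for each biological sample. The authors deposited raw counts per locus, with Bowtie 0.12.7, edgeR and the build TAIR10 named in the submitters' processing notes. The unnamed last value of each deposited column, at most 0.0015% of the total, was left out. It was not whole in WT B, pif3 B and pif5 C, so the unit of these deposited columns was set to expected counts, though 100% of their named values were whole. Symbols came from RefSeq (32834 of 33322 loci matched), and coordinates and upstream windows from TAIR10.1.

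Genes were tested in R 4.3.3 with edgeR 4.0.16: TMM scaling, filterByExpr with a minimum count of 10, and quasi-likelihood tests over all 30 libraries in 1 fit, with Benjamini-Hochberg adjustment over all tested genes and a threshold of 0.05. SE was taken as the size of the log2 fold change divided by the root of the F statistic. Scripts were tested on simulated data. Correlations of same-letter deviations between pif3 and WT were 0.253, 0.562 and 0.106 for A, B and C, so letters were also fitted as a block. The highest correlation between different letters was 0.104. Replicate libraries differed by more than sampling noise. The labels call them biological replicates. Alternatives were other scalings, no filter, DESeq2 1.42.0, subsets of libraries, leaving out each library and, added after seeing the data, pif3 A thinned to the depth of pif3 B and a fit without the libraries labelled pif134.

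Members, lists and tests were chosen with earlier results of these data known. Named were all called genes, up to 6 called only with the block, called or lowest-p members of each list and the 3 lowest p of each direct comparison and of the interaction. PIF3's neighbours, ERF6, WRKY40, CAF1b and TCH3 were chosen after their values were seen. The counting interval given for RRTF1 covers counting error only. The SE values come from the fit and the SD values from the libraries of a genotype, so both include the spread between libraries. A p-value sets a difference against that spread.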

Additional observations from a re-analysis of the deposited data

Results flagged for a closer look

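The effect of losing PIF3 differed between pif3 against WT and pifq against pif145, by the interaction term of edgeR's fit, for 15 of the named genes. Among the genes that fell in pif3 the interaction was -2.01 for AT4G29780 (adjusted p = 0.00031), -4.30 for ORA47 (0.00799), -4.00 for ERF13 (1.33e-05), -2.60 for STZ (0.0219), -3.24 for ERF11 (0.0205), -1.96 for AT5G17350 (0.0462), -2.18 for WRKY46 (0.0462), -2.86 for AT3G10930 (0.0228) and -2.45 for PUB23 (0.0462). AT2G25735, called in pif3 only with the block, had -2.89 (0.0462). The pif3 and WT libraries that chose these genes are part of the interaction, which favours a negative sign.

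Another 5 genes that did not pass in pif3 against WT without the block had their larger difference in pifq against pif145. ELIP1 and ELIP2, the early light-induced proteins, had interactions of 4.94 and 2.80: ELIP1 was at 0.141 ± 0.052 CPM in pifq and 8.20 ± 0.72 CPM in pif145, with 12.3 ± 2.1 CPM in pif3 and 22.7 ± 2.9 CPM in WT. MRD1 had -6.52, with 132.2 ± 30 CPM in pifq and 1.59 ± 0.24 CPM in pif145. It was also low in pif5 and pif135, at 2.31 ± 0.97 and 4.99 ± 1.2 CPM, and at 33.9 ± 2.1 CPM in pif345. In pif3, pif4, WT, pif1 and the libraries labelled pif134 it averaged 93.1 to 114.7 CPM. PGL2, an enzyme of the pentose phosphate pathway, had 3.64, with 0.997 ± 0.16 CPM in pifq and 12.7 ± 2.7 CPM in pif145. QQS had -2.26, with 50.9 ± 17 CPM in pifq and 17.4 ± 1.8 CPM in pif145.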

How the results depend on the processing

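The PIF3 log2 fold change was -5.47 to -5.16 in all alternatives tried. Counts of called genes moved more. The letter block gave 34 in pif3 against WT (8 higher), 669 against pif1, 314 against pif5, 180 in pifq against pif145 and 68 for the interaction. Outside pif3 against WT it brought past the threshold ORA47, THI2.2, PIF4, GUN5 and AT5G02760 against pif1, LHB1B1 and CAB2 against pif4, WRKY46, AOC3, EXPA5 and AT5G35940 against pif5, ESM1 in pifq against pif145, and DIC2 and bbx23 in the interaction, and it changed no other call of a named gene in these comparisons. DESeq2 gave 44 (11 higher, 33 lower), 472 against pif1, 14 against pif4, 275 against pif5, 175 in pifq against pif145 and 70 for the interaction. Single mutants and WT fitted alone gave 1 higher gene in pif3 against WT, 4 against pif4 and 230 against pif5, and with the block 69 (14 higher, 55 lower), 1721 against pif1, 13 against pif4 and 1180 against pif5. The 6 libraries alone gave 14 in pif3 against WT (11 of the 21 among them), 4 against pif4 and 17 in pifq against pif145, and with the block 25 in pif3 against WT (15 of the 21 among them), 1601 against pif1, 1100 against pif5 and 28 in pifq against pif145. Triple mutants and pifq alone gave 44, and 203 with the block.

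Leaving out 1 library gave 8 to 22 genes in pif3 against WT (1 to 6 higher, 7 to 18 lower), 146 to 328 against pif1, 4 to 8 against pif4, 41 to 186 against pif5, 48 to 96 in pifq against pif145 and 18 to 36 for the interaction. Scaling by total counts shifted the median of all genes by 0.12 in pif3 against WT and 0.16 in the interaction. Some genes not called changed sign. With 1 library left out the log2 fold change was -0.34 to 0.36 for PIL5, -0.13 to 0.63 for PIL6, -0.40 to 4.14 for HSP21, -0.65 to 0.58 for GASA2, -0.43 to 0.48 for GASA3, -0.045 to 0.30 for AT5G35940, -0.32 to 0.034 for MRD1 and -0.17 to 0.24 for PGL2. GASA2 was at -0.019 and -0.059 with the block in the single mutants and WT or in the 6 libraries, and PGL2 at 0.13 by total counts and at 0.021 and 0.030 in the 6 libraries without and with the block. The cause of these changes was not tested. Of the other values for single genes and lists, 1553 held, 32 moved, 33 came past the threshold and 79 lost it. RRTF1, ORA47 and AT5G52020 rest on 8 to 19 counts in pif3.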

Other observations

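Seed and heat shock transcripts had a wide range among the pif3 libraries. The summed level of 22 seed storage and maturation genes was 2335, 9533 and 3252 CPM in pif3 A, B and C, against 3486, 4998 and 6129 CPM in WT A, B and C. CRA1, a seed storage globulin, was at 1125, 5948 and 2183 CPM in pif3 and at 1836, 3049 and 3696 CPM in WT. OLEO3, the seed gene that fell, had a narrower range in pif3, also with A lowest and B highest, and was lower in every pif3 library than in every WT library. Of 11 heat shock genes 0 passed, 0 had an unadjusted p under 0.05 and DESeq2 called 0. Their sum was 96.1, 258.6 and 59.8 CPM in pif3 and 132.3, 94.1 and 115.8 CPM in WT, and HSP17.6A alone was at 12.4, 119.2 and 6.83 CPM in pif3 and at 36.9, 26.3 and 34.4 CPM in WT. In both lists pif3 B was the highest of the 6 libraries.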
